A study of Mus musculus with 12 samples.

Results

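The 9 genes that encode the channels, pumps and regulators of liquid clearance in the lung were examined together in whole lungs of neonatal mice. They are among the 52550 genes counted: Scnn1a, Scnn1b and Scnn1g for the subunits of the epithelial sodium channel (ENaC), Atp1b1 for a beta subunit of the sodium pump, Nedd4l for a ubiquitin ligase, Slc12a2 and Cftr for chloride transport, and Aqp1 and Aqp4 for water channels. The rows were found by gene symbol, and all 9 passed the filter on low counts, as did 15885 genes in all. The 12 libraries came from 12 C57Bl/6J mice, 3 in each of 4 groups, with 1 mouse per library. WT mice (Adm+/+) and mice with 1 of the 2 alleles of Adm, the adrenomedullin gene, inactivated throughout the body (Adm+/-) received lipopolysaccharide (LPS) of Escherichia coli at 6 mg/kg or the same volume of PBS, by intraperitoneal injection once a day for 3 days. Lungs were taken on postnatal day 5, 6 h after the last dose. The Adm+/- line had been backcrossed to C57BL/6J, and mice without any functional copy were not part of the study. The comparisons ask whether endotoxin changed these genes in each genotype, and whether the loss of 1 Adm copy altered the change.

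The fetal lung is filled with liquid that its epithelium secretes by moving chloride, which enters the cell through the Slc12a2 cotransporter (NKCC1) and leaves through channels such as Cftr. Around birth the epithelium turns to absorption, in which sodium enters through ENaC at the air side, the sodium pump expels it at the blood side, and water follows through the cell layer and its water channels. The pump needs both an alpha and a beta subunit, and Nedd4l marks ENaC for removal from the membrane, so that transcript levels alone do not give channel activity.

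Values are in CPM, counts scaled to the library total of the tested protein-coding genes after TMM normalization, which adjusts for differences in composition between libraries. They are given in the order of replicates 3, 4 and 5 for WT PBS, 9, 10 and 11 for WT LPS, 6, 7 and 8 for Adm+/- PBS, and 1, 2 and 12 for Adm+/- LPS, where the number is the library number in the labels. A gene was called at a Benjamini-Hochberg adjusted p below 0.05 in edgeR's quasi-likelihood test and an absolute log2 fold change above 0.5. "Higher" or "rose" is used below for genes that were called. Total counts ranged from 22382535 to 38062873 per library, and Adm itself ranged from 2.87 to 8.15 CPM. The Adm+/- to WT log2 difference of Adm was -0.5 ± 0.32 (SE) under PBS and -0.55 ± 0.31 under LPS, and its values overlapped between genotypes in both (edgeR, adjusted p = 0.999 and 0.48). WT PBS replicate 5 and Adm+/- PBS replicate 6 stood apart, with 16.58% and 13.31% of their counts on the noncoding gene Gm26917 against 5.42% to 7.4% elsewhere, and with 30500 and 20300 CPM summed over 5 fibroblast markers against 6710 to 11000 elsewhere. Replicate 5 was also the lowest WT PBS library for 8 of the 9 genes, and replicate 6 the lowest Adm+/- PBS library for 6 of them. Their part in the results was not tested beyond leaving them out, and values without them are given for some of the results.

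In mm10, with Gencode M21 positions, Scnn1g (chr7:121734479-121768475) and Scnn1b (chr7:121865038-121918514) lie in tandem on the plus strand, 96562 bp apart, while Scnn1a is on another chromosome (chr6:125320659-125344943). Chromosome 6 also carries Cftr (chr6:18170687-18322768) and Aqp1 (chr6:55336432-55348555), both on the plus strand. Atp1b1 is on the minus strand of chromosome 1 (chr1:164437109-164458355), where exons of Nme7 on the opposite strand overlap it. Nme7 had at most 437 counts in any library. An opposite-strand transcript with overlapping exons also lies within Cftr (Gm15592, at most 54 counts), and the strand setting of the counting is not given in the sources used here.

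RefSeq promoters of GRCm38.p6 were read for 5 of the 9 genes, matched by symbol. Those of the neighbouring ENaC genes, of Atp1b1, which had the largest LPS response of the 9 genes, and of Cftr, which was not called, are printed here. Each line holds the 250 bases before the RefSeq start site, 5′ to 3′, with GC boxes (GGGCGG) and CCAAT boxes (CCAAT) on either strand in capitals.
Scnn1g, chr7:121734229-121734478, plus strand: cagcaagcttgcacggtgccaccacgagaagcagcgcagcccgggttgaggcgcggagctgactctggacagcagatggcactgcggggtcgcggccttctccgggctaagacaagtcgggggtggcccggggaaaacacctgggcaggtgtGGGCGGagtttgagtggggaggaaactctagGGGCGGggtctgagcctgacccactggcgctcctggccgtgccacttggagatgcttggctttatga
Scnn1b, chr7:121864788-121865037, plus strand: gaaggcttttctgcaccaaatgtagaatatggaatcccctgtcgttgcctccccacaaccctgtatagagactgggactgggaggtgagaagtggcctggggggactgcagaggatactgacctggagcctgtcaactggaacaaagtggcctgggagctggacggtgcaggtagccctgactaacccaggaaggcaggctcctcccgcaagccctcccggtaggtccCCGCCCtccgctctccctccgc
Atp1b1, chr1:164458356-164458605, minus strand: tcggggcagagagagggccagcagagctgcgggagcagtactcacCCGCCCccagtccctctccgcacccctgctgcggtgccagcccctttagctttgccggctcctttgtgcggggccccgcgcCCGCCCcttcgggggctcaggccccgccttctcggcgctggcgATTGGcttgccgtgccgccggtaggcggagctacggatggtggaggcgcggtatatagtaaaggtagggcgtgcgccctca
Cftr, chr6:18170437-18170686, plus strand: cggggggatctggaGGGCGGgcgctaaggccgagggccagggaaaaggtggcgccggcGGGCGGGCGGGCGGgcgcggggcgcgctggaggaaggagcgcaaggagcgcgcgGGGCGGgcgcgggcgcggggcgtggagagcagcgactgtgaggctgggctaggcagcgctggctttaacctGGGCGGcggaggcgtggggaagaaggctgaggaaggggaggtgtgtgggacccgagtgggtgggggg
Cftr had 6 GC boxes, of which 3 overlapped one another, Scnn1g and Atp1b1 had 2 each, and Scnn1b had 1. A GC box was in 32.74% and a CCAAT box in 33.85% of all 32851 promoters of this length, and the only CCAAT box here was that of Atp1b1. No base was shared by the 2 kinds of box. The GC content of these stretches was 65.2% for Scnn1g, 60.8% for Scnn1b, 70.4% for Atp1b1 and 76.4% for Cftr, against a median of 52.4% over all promoters. The letters searched on both strands for part of a glucocorticoid response element (AGAACA, in 16.08% of all promoters), a STAT site (TTCNNNGAA, 7.02%) and a TATA box (TATAAA, 12.37%) had 0 matches in the 4 stretches. Only these exact letters were searched, and variants of them, such as tatata near the start site of Atp1b1, were not counted.

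**Figure D1:**
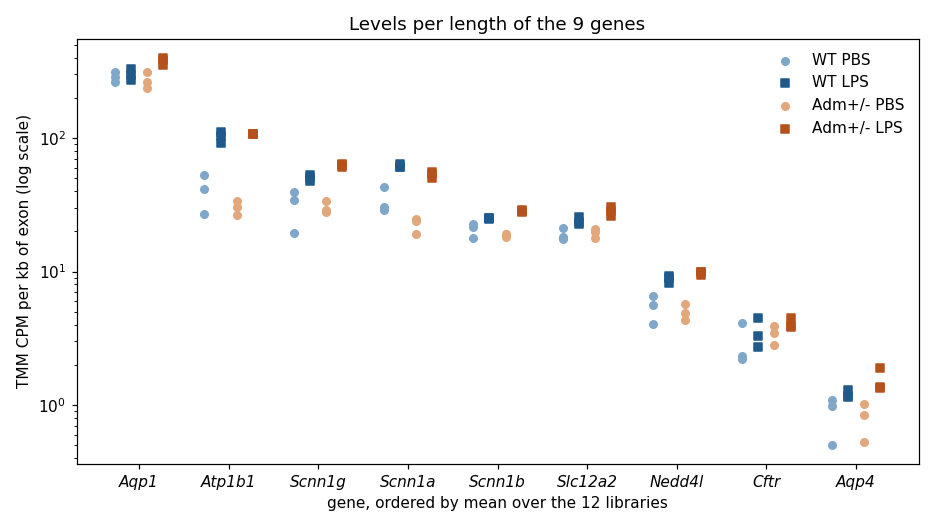
Level of each of the 9 genes in 12 libraries, in TMM CPM per kb of exon on a log axis, with 1 point per library coloured by group and genes ordered by their mean. Aqp1, at a mean of 310, stands above all others, and Aqp4, at 1.1, is the lowest.

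Per kb of exon, Aqp1 was the most abundant of the 9 genes, with a mean of 310 CPM per kb over the 12 libraries. Atp1b1 followed at 70.2, and Aqp1 was above it in 12 of 12 libraries. The ENaC subunits came next, at 43.4 for Scnn1g, 42.8 for Scnn1a and 23.3 for Scnn1b, close to Slc12a2 at 22.7. Nedd4l was at 7.25, Cftr at 3.47 and Aqp4 at 1.1 CPM per kb. Neighbours in this order were separated in 11 or 12 of 12 libraries except for 2 pairs. Scnn1g was above Scnn1a in 7 of 12 libraries, and Scnn1b above Slc12a2 in 7 of 12, so that neither pair could be ordered beyond its spread. Exon length here is the union of all annotated exons, which is 17.66 kb for Nedd4l and 10.92 kb for Slc12a2 and lowers their values if only shorter transcripts were present.

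**Figure D2:**
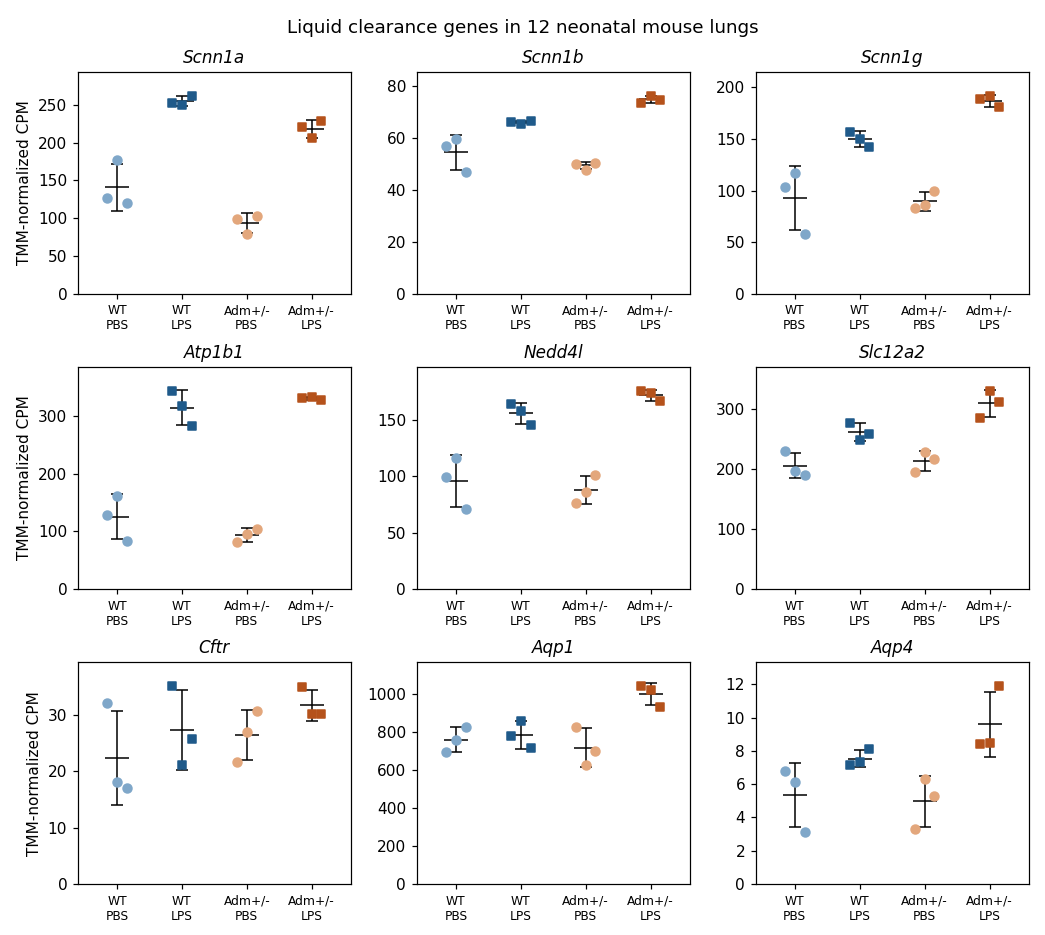
TMM-normalized CPM of each gene in each library, with 1 point per mouse, the horizontal line at the group mean and the bars at 1 SD (n = 3). All LPS libraries lie above all PBS libraries of their genotype for the 3 ENaC subunits, Atp1b1, Nedd4l, Slc12a2 and Aqp4, whereas Cftr overlaps in both genotypes and Aqp1 in WT mice only.

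After LPS, 4 of the 9 genes were higher in WT lungs and 7 of the 9 in Adm+/- lungs, and none was lower. Over all genes tested, 10.5% were higher after LPS in WT and 12.8% in Adm+/- mice, and 7.09% and 12.2% were lower. Scnn1a, Scnn1g, Atp1b1 and Nedd4l were higher in both genotypes, which 7.23% of all genes were. Scnn1b, Slc12a2 and Aqp4 were called in Adm+/- mice alone, and Cftr and Aqp1 in neither. The median log2 fold change of the 9 was 0.48 in WT and 0.94 in Adm+/- mice, against 0.01 and -0.01 over all genes. LPS and PBS groups did not overlap for 7 of the 9 genes in WT and 8 of the 9 in Adm+/- mice, all higher after LPS, as were 18.3% and 26.6% of all genes. In RNA of whole lung, a change in the number of cells of a type and a change in RNA per cell cannot be told apart.

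Scnn1a, whose product is the alpha subunit that ENaC needs to conduct, was at 126, 177 and 120 CPM in WT PBS and 252, 250 and 262 CPM in WT LPS lungs. In Adm+/- lungs it was at 99.1, 79 and 103 CPM after PBS and 221, 206 and 228 CPM after LPS. Every LPS library was above every PBS library of either genotype, and the lowest values of all were those of the Adm+/- PBS group. The log2 fold change was 0.85 ± 0.15 (SE) in WT (edgeR, adjusted p = 0.0027) and 1.22 ± 0.15 in the Adm+/- genotype (adjusted p = 0.000185), or 1.8-fold and 2.33-fold. These calls held without any single library.

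Scnn1g, for the gamma subunit, was at 103, 117 and 57.7 CPM in WT PBS and 157, 150 and 142 CPM in WT LPS lungs, and at 82.8, 86 and 100 CPM in Adm+/- PBS and 189, 192 and 181 CPM in Adm+/- LPS lungs. The groups did not overlap, and WT PBS replicate 5 lay far below the other 2 of its group. Its log2 fold change was 0.69 ± 0.2 in WT (edgeR, adjusted p = 0.0312) and 1.06 ± 0.2 in the Adm+/- genotype (adjusted p = 0.00241). The WT call rested on single libraries. Without WT PBS replicate 5 the fold change was 0.44, under the minimum of 0.5, and without WT LPS replicate 9, 10 or 11 the adjusted p was 0.107, 0.0631 and 0.0504. With only the 6 WT libraries in the fit it was 0.133. The Adm+/- call held without any single library.

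Scnn1b, for the beta subunit, moved least of the ENaC genes. It was at 56.8, 59.7 and 47 CPM in WT PBS and 66.4, 65.6 and 66.5 CPM in WT LPS lungs, a log2 difference of 0.28 ± 0.1 that was not called (edgeR, adjusted p = 0.0572) although the groups did not overlap. When 1 library was left out, that difference was between 0.18, without WT PBS replicate 5, and 0.35. In Adm+/- lungs, values of 50, 47.9 and 50.6 CPM after PBS and 73.6, 76.4 and 74.9 CPM after LPS gave a log2 fold change of 0.6 ± 0.1 (adjusted p = 0.000893).

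Because the subunits assemble into 1 channel, their ratios within each library were compared. The ratio of Scnn1a to Scnn1b counts lay between 2.22 and 2.96 in WT PBS, between 3.78 and 3.94 in WT LPS, between 1.65 and 2.03 in Adm+/- PBS and between 2.69 and 3.05 in Adm+/- LPS libraries. It was higher after LPS by 0.58 on the log2 scale in WT and by 0.63 in Adm+/- mice, with no overlap in either. An exact permutation test over all 400 assignments of treatment within genotype gave p = 0.005 for the mean difference of 0.61, the smallest these permutations can give, and an adjusted p of 0.01 over 4 ratios. The ratio of Scnn1b to Scnn1g went the other way, by -0.47 in each genotype (exact permutation p = 0.005, adjusted p = 0.01). Its log2 values in WT PBS were -0.86, -0.97 and -0.3, the last in replicate 5, against -1.24 to -1.09 in WT LPS. Replicate 5 thus enlarged the WT change. Under the alternatives the mean change of both genotypes was -0.53 to -0.33 (exact permutation, adjusted p at most 0.02). The alpha and gamma transcripts thus changed by more than the beta transcript.

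**Figure D3:**
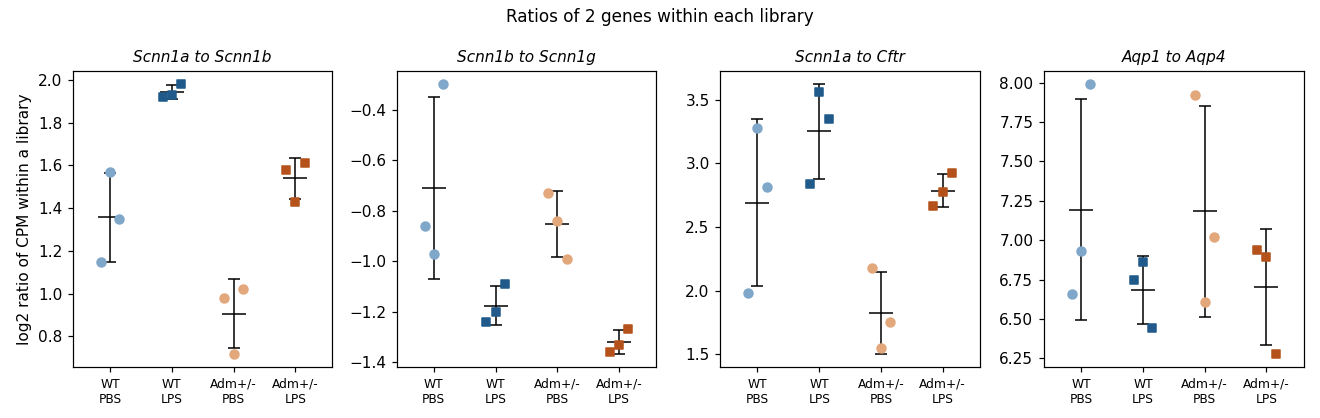
Log2 ratio of CPM of 2 genes within each library for 4 gene pairs, with 1 point per mouse, the group mean and 1 SD (n = 3). After LPS the Scnn1a to Scnn1b ratio lies above, and the Scnn1b to Scnn1g ratio below, every PBS value of the same genotype, while Aqp1 to Aqp4 overlaps.

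Atp1b1, for the beta1 subunit that carries the sodium pump to the membrane, had the largest response of the 9 genes in both genotypes. Its values were 129, 162 and 83.8 CPM in WT PBS and 344, 318 and 283 CPM in WT LPS lungs, and 81.6, 94.6 and 104 CPM in Adm+/- PBS and 332, 333 and 328 CPM in Adm+/- LPS lungs. The 6 LPS lungs, of both genotypes, fell within one range well above all 6 PBS lungs. The log2 fold change was 1.33 ± 0.19 in WT (edgeR, adjusted p = 0.00104) and 1.82 ± 0.2 in the Adm+/- genotype (adjusted p = 9.94e-05), or 2.52-fold and 3.54-fold. The WT value was 1.11 without WT PBS replicate 5. It was also the only gene of the 9 called in WT mice by limma-voom's treat, a test against a log2 change of 0.5 itself, which in Adm+/- mice called Atp1b1 and Scnn1a.

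Nedd4l (chr18:64887705-65217828, plus strand), in which the antisense transcript A330084C13Rik with overlapping exons had at most 67 counts, was at 99.8, 116 and 70.9 CPM in WT PBS and 164, 158 and 146 CPM in WT LPS lungs. In Adm+/- lungs it was at 76.6, 86 and 101 CPM after PBS and 176, 174 and 167 CPM after LPS. The ligase that removes ENaC was therefore higher in the same lungs as Scnn1a and Scnn1g. Its log2 fold change was 0.71 ± 0.16 in WT (edgeR, adjusted p = 0.0105, and 0.0666 when only the 6 WT libraries were fitted) and 0.97 ± 0.16 in the Adm+/- genotype (adjusted p = 0.00107). Without WT PBS replicate 5 the WT value was 0.53, just above the minimum of 0.5, and was still called.

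Of the chloride transporters, Slc12a2 (chr18:57878678-57946821, plus strand) was at 230, 197 and 191 CPM in WT PBS and 278, 248 and 258 CPM in WT LPS lungs, and at 196, 228 and 217 CPM in Adm+/- PBS and 286, 331 and 312 CPM in Adm+/- LPS lungs. The groups were apart in both genotypes by small margins. In WT mice the log2 difference of 0.34 ± 0.1 had an adjusted p of 0.0378 (edgeR) and was not called, being under the minimum fold change. In Adm+/- mice it rose by 0.54 ± 0.1 (adjusted p = 0.00282), a call that ended without Adm+/- PBS replicate 6 (0.48) or Adm+/- LPS replicate 2 (0.49).

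Cftr varied widely within groups. It was at 32, 18.1 and 17.1 CPM in WT PBS, 35.1, 21.1 and 25.7 CPM in WT LPS, 21.7, 27 and 30.6 CPM in Adm+/- PBS and 34.9, 30.2 and 30.1 CPM in Adm+/- LPS lungs. PBS and LPS values overlapped in both genotypes. The log2 difference was 0.28 in WT (95% interval -0.26 to 0.83, edgeR, adjusted p = 0.434) and 0.26 in Adm+/- mice (-0.28 to 0.8, adjusted p = 0.457), and both intervals hold the value of 0.69 found for Scnn1g in WT mice. Leaving out 1 library moved the WT value between 0.06, without WT LPS replicate 9, and 0.63, without WT PBS replicate 3 (adjusted p = 0.0549). It moved the Adm+/- value between 0.14, without Adm+/- PBS replicate 6, and 0.38. Within libraries, the Scnn1a to Cftr ratio was nevertheless higher after LPS, by 0.56 on the log2 scale in WT and 0.96 in Adm+/- mice (exact permutation p = 0.01 for the mean of 0.76, adjusted p = 0.0133). In WT mice these ratios overlapped, at 3.95 to 9.74 after PBS and 7.16 to 11.8 after LPS, and in Adm+/- mice they did not.

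The water channels differed from each other in level, while a difference in response was not shown. Aqp1, which is known from endothelium, was at 693, 757 and 823 CPM in WT PBS and 777, 858 and 713 CPM in WT LPS lungs, which overlapped (log2 difference 0.05, 95% interval -0.22 to 0.31, edgeR, adjusted p = 0.808). In Adm+/- lungs it was at 825, 623 and 696 CPM after PBS and 1040, 1020 and 931 CPM after LPS. All 3 Adm+/- LPS lungs were above the other 9, but the log2 difference of 0.48 ± 0.12 (adjusted p = 0.0112) was just under the minimum of 0.5 and was not called. It was called without Adm+/- PBS replicate 6 (0.6, adjusted p = 0.00633) and without Adm+/- LPS replicate 12 (0.53, adjusted p = 0.0221). The summed level of 10 endothelial markers was 3500 to 3620 CPM in WT PBS, 3020 to 3120 in WT LPS, 3580 to 3810 in Adm+/- PBS and 3210 to 3560 in Adm+/- LPS lungs. Of the single endothelial markers, 2 were called lower in WT mice, and 1 higher and 2 lower in Adm+/- mice. The summed level of 10 type II pneumocyte markers was 14300 to 16200, 14200 to 16200, 13800 to 17400 and 16100 to 17500 CPM in the same order of groups. Over the 12 libraries, which share the treatment groups, the Pearson correlation of Aqp1 with the type II sum was 0.77 and with the endothelial sum -0.31, and the part of either in the Aqp1 values was not tested.

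Aqp4 (chr18:15389496-15410982, minus strand), a water channel of the basolateral membrane of airway epithelium, was scarce, at 6.8, 6.12 and 3.15 CPM in WT PBS and 7.15, 7.32 and 8.12 CPM in WT LPS lungs, where the log2 difference of 0.48 ± 0.29 was not called (edgeR, adjusted p = 0.248). That difference was 0.22 without WT PBS replicate 5 and 0.69 without WT PBS replicate 3. In Adm+/- lungs it rose from 3.31, 6.32 and 5.29 CPM to 8.41, 8.5 and 11.9 CPM, a log2 fold change of 0.94 ± 0.29 (adjusted p = 0.0287). Its counts were 51 to 333 per library. The adjusted p was 0.095 without Adm+/- PBS replicate 6, 0.0649 without replicate 8 and 0.112 without Adm+/- LPS replicate 12. The Aqp1 to Aqp4 ratio changed by -0.49 on the log2 scale, which was not past the threshold (exact permutation p = 0.14, adjusted p = 0.14). It was -0.11 without both libraries that stood apart (adjusted p = 0.55).

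Without WT PBS replicate 5 and Adm+/- PBS replicate 6 together, 3 of the 9 genes were called in WT and 7 in Adm+/- mice, with Scnn1g lost in WT and, in Adm+/- mice, Slc12a2 lost and Aqp1 gained. Markers of other cell types moved with treatment as well. The sum of 7 neutrophil markers was 26.8 to 129 CPM in WT PBS and 1070 to 1920 CPM in WT LPS lungs, and 26 to 41.9 against 1090 to 1330 CPM in Adm+/- lungs. The sum of 4 club cell markers was 1050 to 2200 against 2330 to 2660 CPM in WT and 1050 to 1940 against 2410 to 2830 CPM in Adm+/- lungs, while of the single markers 1 was called higher in WT and 0 were called in Adm+/- mice. The sum of 10 type II pneumocyte markers overlapped between all 4 groups, at 13800 to 17500 CPM, while of the single markers 1 was called higher in WT and 3 higher and 2 lower in Adm+/- mice. The sum of 9 type I markers was 4000 to 4190 CPM after PBS and 3420 to 3830 CPM after LPS in WT lungs, without overlap, and 3650 to 4110 against 3570 to 3680 CPM in Adm+/- lungs, and single type I markers were called in both directions (1 higher and 1 lower in WT, 2 higher and 1 lower in Adm+/- mice). The sum of 5 fibroblast markers was 10500 to 30500 CPM after PBS and 6710 to 10100 CPM after LPS in WT lungs, and 10000 to 20300 against 7490 to 9080 CPM in Adm+/- lungs, while of the single markers 1 was called higher in WT and 1 lower in Adm+/- mice. The sum of 7 monocyte and macrophage markers was 1030 to 1260 CPM after PBS and 1570 to 2150 CPM after LPS in WT lungs, and 1000 to 1220 against 1610 to 2130 CPM in Adm+/- lungs. In WT LPS lungs, 11 basal and squamous epithelial markers summed to 3110, 27.9 and 1600 CPM, against at most 5.44 CPM after PBS and 43 CPM in Adm+/- LPS lungs, and 10 skeletal muscle markers summed to 876 to 2110 CPM, against at most 29.4 CPM after PBS and 55.7 CPM in Adm+/- LPS lungs. The part of the other cell types in the results was not tested.

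**Figure D4:**
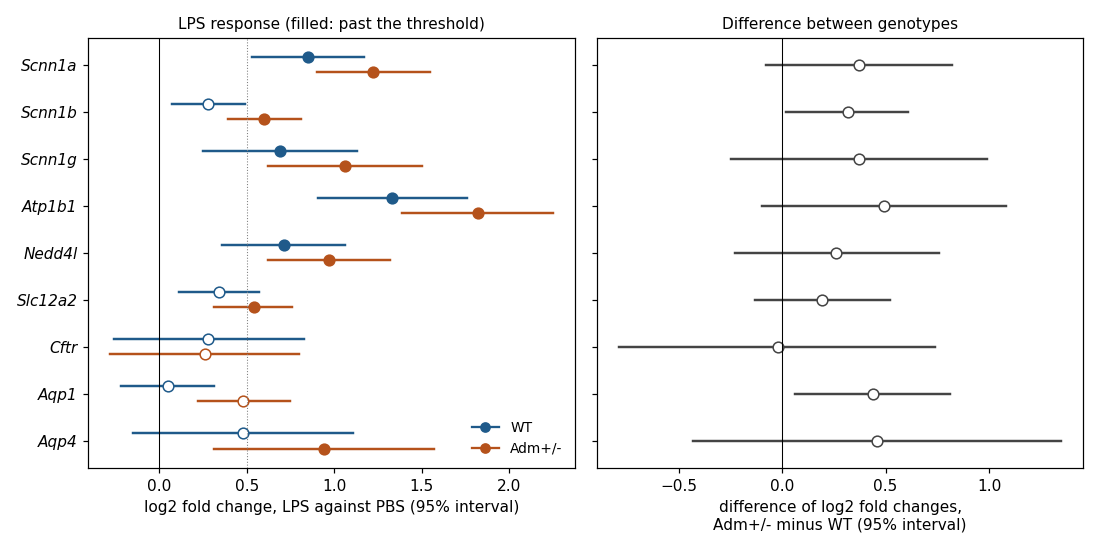
Left, log2 fold change of each gene, LPS against PBS, in WT and Adm+/- mice with 95% intervals derived from edgeR's F statistic, filled where the gene was called and with a dotted line at 0.5. Right, the Adm+/- minus WT difference of these fold changes with 95% intervals, in which 8 of 9 points are above 0 and no gene was called.

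The LPS response of the 9 genes was not shown to differ between genotypes. The difference between the log2 fold changes, Adm+/- minus WT, was above 0 for 8 of the 9 genes with a median of 0.37, against -0.01 over all genes, but 0 of 9 were called by edgeR, as were 0.145% of all genes. At an unadjusted p below 0.05 there were 2 of the 9, Scnn1b at 0.32 (95% interval 0.02 to 0.61, adjusted p = 0.586) and Aqp1 at 0.44 (0.06 to 0.81, adjusted p = 0.526), and 7.85% of all genes. DESeq2 also called 0 of the 9. For Atp1b1 the difference was 0.49 (-0.1 to 1.08) and for Scnn1a 0.37 (-0.08 to 0.82), intervals that hold 0 and, for Atp1b1, a ratio of responses up to 2.11-fold. Omitting single libraries gave 0.26 (without WT PBS replicate 4) to 0.71 (without replicate 5) for Atp1b1 and 0.18 (without replicate 4) to 0.48 (without replicate 5) for Scnn1a. For Cftr it was -0.02 (-0.79 to 0.74). The genes called in Adm+/- mice alone are thus not shown to respond in that genotype only.

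Between genotypes under the same treatment, 0 of the 9 genes were called by edgeR or by DESeq2. Under PBS no gene of any kind was called (0% of those tested), and 2.17% had an unadjusted p below 0.05. Scnn1a was the exception among the 9 in that its Adm+/- PBS values, 79 to 103 CPM, lay below all WT PBS values, 120 to 177 CPM, as did 2.51% of all genes. Its log2 difference of -0.59 ± 0.15 ranked at 7 of 15885 genes by unadjusted p in edgeR but had an adjusted p of 0.999, and it was -0.74 to -0.4 under the alternatives. The other 8 genes overlapped between genotypes under PBS, with log2 differences from -0.42 for Atp1b1 to 0.24 for Cftr. That of Atp1b1 was -0.64 without WT PBS replicate 5 and -0.19 without replicate 4, and that of Cftr was 0.59 without WT PBS replicate 3 and 0.07 without replicate 5.

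Under LPS, 2.05% of all genes were called between genotypes. Scnn1a was again lower in every Adm+/- lung, at 206 to 228 against 250 to 262 CPM, as were 12.4% of all genes, with a log2 difference of -0.22 ± 0.15 (edgeR, adjusted p = 0.583). For 6 genes the direction was opposite, none of them called. Scnn1b, Scnn1g, Slc12a2, Aqp1, Aqp4 and Nedd4l had larger values in all 3 Adm+/- LPS than in all 3 WT LPS lungs, as did 12.2% of all genes, and the log2 differences were 0.14 to 0.35 with adjusted p from 0.182 for Aqp1 to 0.813 for Nedd4l. That of Aqp4, 0.35, was between 0.17, without Adm+/- LPS replicate 12, and 0.44 when 1 library was left out. A permutation of 3 against 3 lungs cannot give a two-sided p below 0.1, and at an unadjusted p below 0.05 edgeR gave 2 of the 9 genes, Slc12a2 and Aqp1, and 14.3% of all genes.

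Over the 12 libraries, the log2 CPM of most of the 9 genes were correlated. The Pearson correlation of the 36 pairs was 0.126 to 0.985 with a median of 0.821, which includes the LPS difference that most of them shared. Among all other tested genes, those most like Scnn1a were Ret (r = 0.982) and Ctsh (0.98), and those most like Scnn1g were Npc2 (0.989) and Slc31a1 (0.986). Npc2 (0.974) and Igf2bp2 (0.97) were most like Scnn1b. Atp1b1 was closest to Ebi3 (0.994) and Trem1 (0.992), and Nedd4l to Egfr (0.995) and Dfna5 (0.993). For Slc12a2 they were Tmem248 (0.967) and Dcaf10 (0.967), for Aqp1 Etv3 (0.968) and Shank3 (0.958), for Aqp4 Homez (0.958) and Gabrp (0.951), and for Cftr Bcl11a (0.912) and Fdxacb1 (0.907). All are descriptions over 12 libraries of 4 groups.

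A further 61 genes of salt and water transport were examined as context, 58 of which passed the filter (not Aqp8, Cnga1 and Kcnj16). In WT mice 10 were higher and 4 lower after LPS, and in Adm+/- mice 11 were higher and 5 lower, against 17.6% and 25% of all genes called in either direction. The shares of 14 of 58 and 16 of 58 were not far above these. Without WT LPS replicate 9, 8 of the 58 were called in WT mice, and the share of all genes called went from 17.6% to 9.03%.

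**Figure D5:**
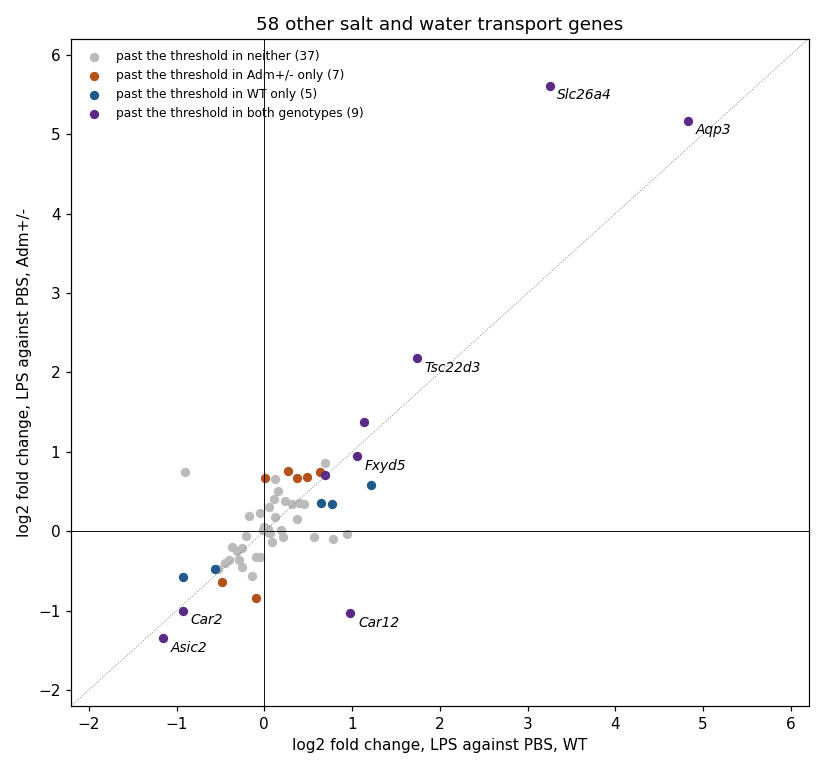
Log2 fold change after LPS in WT (horizontal) and Adm+/- mice (vertical) for the 58 other tested genes of salt and water transport, coloured by the genotypes in which they were called, with a dotted line of equal change. Most points lie near 0, Aqp3 and Slc26a4 are far above in both genotypes, and Car12 is called in opposite directions.

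Of these, 8 were called in the same direction in both genotypes. Slc26a4, the anion exchanger pendrin of airway epithelium, was at 0.388, 0.34 and 0.185 CPM in WT PBS, 3.54, 4.87 and 0.757 CPM in WT LPS, 0.316, 0.676 and 0.199 CPM in Adm+/- PBS and 21.4, 20.2 and 19.3 CPM in Adm+/- LPS lungs. It rose in both genotypes from 3 to 20 counts per PBS library, by 3.25 ± 0.64 in WT (edgeR, adjusted p = 0.00511) and 5.61 ± 0.6 in the Adm+/- genotype (adjusted p = 9.72e-05). Under LPS it was higher in Adm+/- than in WT lungs, by 2.73 ± 0.48 (adjusted p = 0.0163, and 0.0654 to 0.0696 when 1 Adm+/- LPS library was left out), whereas the difference between the responses was not called (2.35 ± 0.94, adjusted p = 0.542). Aqp3, a water and glycerol channel, was at 1.98, 0.922 and 1.61 CPM in WT PBS and 85, 11.1 and 32.9 CPM in WT LPS lungs, and at 1.37, 0.676 and 0.517 CPM in Adm+/- PBS and 30.1, 28.2 and 30.9 CPM in Adm+/- LPS lungs. Its log2 fold change was 4.83 ± 0.66 in WT (adjusted p = 0.000799) and 5.17 ± 0.69 in the Adm+/- genotype (adjusted p = 0.000305). The WT LPS values were in the order of the squamous marker sums given above, which were 43, 11.5 and 5.38 CPM in the Adm+/- LPS lungs, and the part of squamous tissue in the Aqp3 values was not tested.

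Regulators of sodium absorption were also among the 8. Tsc22d3, a glucocorticoid-induced gene that also acts on ENaC, rose by 1.74 ± 0.28 in WT (edgeR, adjusted p = 0.00189) and by 2.18 ± 0.29 in the Adm+/- genotype (adjusted p = 0.000286). Fxyd5, a modulator of the sodium pump, rose by 1.06 and 0.95, and Tmprss4, a protease that can cleave ENaC, by 0.69 and 0.71, of which the WT call ended without WT LPS replicate 9 (adjusted p = 0.0519). Asic2, of the same channel superfamily as ENaC, fell by 1.15 and 1.35 and the carbonic anhydrase Car2 fell by 0.93 and 1 on the log2 scale. With only the 6 WT libraries in the fit, the WT calls of Asic2 and Tmprss4 ended (adjusted p = 0.0557 and 0.0582). Sgk1, the kinase that restrains Nedd4l, was not called, at 0.39 in WT (adjusted p = 0.0569) and 0.36 in the Adm+/- genotype (adjusted p = 0.0601).

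Other genes were called in 1 genotype alone. Atp1b3, for another beta subunit of the sodium pump, rose by 0.68 in Adm+/- mice (edgeR, adjusted p = 0.00656) and had a log2 difference of 0.49 in WT mice, under the minimum (adjusted p = 0.0434). The ENaC-cleaving protease Furin rose by 0.76 and the membrane protease St14 by 0.67 in Adm+/- mice, with 0.27 and 0.01 in WT mice. St14 was at 49, 54.8 and 85 CPM in WT PBS and 68.1, 64.4 and 57.3 CPM in WT LPS lungs. All WT LPS values of St14 were thus above the WT PBS values other than that of replicate 5, which stood apart. In WT mice alone, the deubiquitinase Usp2 (0.77), the protease inhibitor Spint1 (0.64) and Aqp9 (1.22) rose, and the cortisol-inactivating enzyme Hsd11b2 (-0.93) and the chloride channel Ano1 (-0.56) fell. In Adm+/- mice, where none of them was called, the mean CPM after LPS went the same way. It went from 8.46 to 10.7 for Usp2, 33.9 to 43.2 for Spint1 and 1.05 to 1.59 for Aqp9. For Hsd11b2 it went from 12.3 to 8.23 and for Ano1 from 150 to 107. For none of these genes was the difference between genotypes in the LPS response called, with adjusted p from 0.531 to 0.996. With only the 6 WT libraries in the fit, the WT calls of Usp2 (adjusted p = 0.0557), Hsd11b2 (0.0682), Ano1 (0.103), Spint1 (0.111) and Aqp9 (0.12) all ended. Several of these calls rested on single libraries. When each of the 12 libraries was left out in turn, that of Aqp9 ended in 8 fits, that of Spint1 in 4 (without WT PBS replicate 3 or 4 or WT LPS replicate 9 or 11, adjusted p = 0.0574 to 0.123), that of Ano1 in 2 (without WT PBS replicate 5 or WT LPS replicate 9, 0.0552 and 0.0767) and that of Hsd11b2 in 1 (without WT LPS replicate 9, 0.0563). For Aqp9 these were the fits without WT PBS replicate 4 or 5, WT LPS replicate 9 or 11, Adm+/- PBS replicate 8 or any Adm+/- LPS library (0.0525 to 0.141). The call of St14 ended without Adm+/- PBS replicate 7 or 8 or Adm+/- LPS replicate 12 (0.053 to 0.066).

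The carbonic anhydrase Car12 alone was called in opposite directions. It was at 1.9, 1.75 and 1.36 CPM in WT PBS and 3.79, 1.87 and 4.3 CPM in WT LPS lungs, and at 2, 2.53 and 2.03 CPM in Adm+/- PBS and 1.01, 1.13 and 1.07 CPM in Adm+/- LPS lungs. In WT mice the groups overlapped, and the low LPS library was replicate 10, which also had the lowest squamous marker sum. The log2 fold change was 0.98 ± 0.29 in WT (edgeR, adjusted p = 0.0334) and -1.03 ± 0.3 in the Adm+/- genotype (adjusted p = 0.0226), and the difference of -2.02 ± 0.42 was not called (adjusted p = 0.129, against 0.00562 in DESeq2 and 0.0127 in edgeR without WT LPS replicate 10). The WT call ended for 5 of the 12 libraries when each was omitted (WT PBS replicate 4 or 5, WT LPS replicate 9 or 11, or Adm+/- LPS replicate 12, adjusted p = 0.0502 to 0.126), with only the 6 WT libraries (0.137) and in limma-voom (0.061). The Adm+/- call ended without Adm+/- PBS replicate 7 or any 1 of the Adm+/- LPS libraries (0.0522 to 0.0753). Under LPS, Car12 and Usp2 were lower in Adm+/- than in WT lungs, by -1.63 ± 0.3 (adjusted p = 0.0177) and -0.81 ± 0.17 (adjusted p = 0.0312). The calls of Slc26a4, Car12 and Usp2 between genotypes under LPS each ended when any 1 of the 3 Adm+/- LPS libraries was left out, those of Car12 and Usp2 also without WT LPS replicate 11, and that of Usp2 also without WT LPS replicate 10 or Adm+/- PBS replicate 7. They also ended with only the 6 LPS libraries in the fit (adjusted p = 0.0507 for Slc26a4, 0.0621 for Car12 and 0.0585 for Usp2).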

How the data were processed

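RNA from whole lungs of 12 mice was sequenced with a directional kit after rRNA depletion. Per the labels, the authors processed the reads with Trim Galore, HISAT2, mm10 and featureCounts. The deposited table holds raw counts of 52550 genes in 12 libraries, without normalization. The Gencode release and the strand option are not given in the sources used here. Counting precision covers counting error only, since reads carry no molecular identifiers. No pair of libraries of a group was identical or differed by no more than sampling noise (at least 9.87 times the chi-square expected from it, over 12 pairs), and p-values measure the spread between 3 mice per group.

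Of 21950 protein-coding genes, 15885 passed filterByExpr and were tested in R 4.3.3 with edgeR 4.0.16 (TMM, glmQLFit and glmQLFTest), with 1 coefficient per group, 8 residual degrees of freedom and Benjamini-Hochberg adjustment over all genes tested. Log2 CPM for correlations used a prior count of 2. Ratios were tested by an exact two-sided permutation test. Alternatives used RLE size factors, DESeq2 1.42.0, limma 3.58.1 (voom, and treat against 0.5), no filter, all annotated genes, no minimum fold change, only the 6 libraries compared, and fits without single libraries or without both that stood apart. The procedure was tested on simulated data. Gene positions came from Gencode M21 (99.7% of genes found) and promoters from RefSeq.

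The 9 genes, the 61 further genes and the 16 marker lists were chosen with earlier results of these data known. Named among the 61 are those called in the same direction in both genotypes, the 5 of smallest p among those called in 1 genotype only, and those called in another comparison. Some genes that this rule names are not reported here. Likeness was ranked by Pearson's r, with 2 genes named per member. Sgk1 was named after its values were seen.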

Additional observations from a re-analysis of the deposited data

How the results depend on the processing

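The direction of the LPS response of the 9 genes was the same under every alternative in both genotypes, except for Aqp1 in WT mice, whose log2 fold change was -0.03 to 0.11 when 1 library was left out. Of 378 values for these 18 responses, 350 kept their direction and their side of the threshold, 21 fell below the threshold, 5 rose past it and 2 changed sign. With limma-voom's treat against 0.5, which is a stricter test by construction, 1 of the 9 genes was called in WT and 2 in Adm+/- mice, and of the 58 further genes 2 and 6, as were 3.41% and 7.17% of all genes. With only the 6 libraries compared in the fit, 2 of the 9 and 6 of the 58 were called in WT mice, while the share of all genes called went from 17.6% to 7.19%. Leaving out 1 library gave 3 to 4 of the 9 in WT and 6 to 7 in Adm+/- mice, and 8 to 17 and 12 to 20 of the 58. The difference between genotypes among the 58 was 1 gene, Car12, in DESeq2, and 0 to 1 without 1 library. The Aqp1 to Aqp4 ratio changed by -0.64 to -0.3 without 1 library, with the lowest adjusted p, 0.045, without Adm+/- PBS replicate 7. Where not stated, the cause was not tested. Differences near 0 changed sign. The Cftr difference between genotypes was 0.02 without both libraries that stood apart and -0.37 to 0.2 without 1 library. Under PBS, without 1 library, the genotype difference was -0.3 to 0.15 for Scnn1g, 0 to 0.14 for Slc12a2, -0.21 to 0 for Aqp1, -0.36 to 0.1 for Aqp4 and -0.3 to 0.04 for Nedd4l, and under LPS it was 0 to 0.14 for Atp1b1. No paired analysis was made, because the replicate numbers are library numbers and do not say whether mice were paired or littermates. Counts per library were low for Aqp4 (51 to 333), Aqp9 (6 to 65) and Asic2 (22 to 69), and the part of depth in their spread was not tested.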
